A study of Homo sapiens with 4 samples.

Results

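Histone genes of the HIST clusters, which code for the linker histone H1 and the core histones H2A, H2B, H3 and H4, were followed in maps of H3K27ac from KGN cells. Members were all called regions whose nearest gene, in the authors' annotation, had a symbol beginning with HIST1H, HIST2H, HIST3H or HIST4H, or with one of the newer prefixes H1-, H2AC, H2BC, H2AZ, H3C, H3-3 and H4C. They came to 65 of 19110 control regions (0.340%, Wilson 95% interval 0.267 to 0.433) and 5 of 604 testosterone regions (0.828%, 0.354 to 1.92). The control members belonged to 39 of the 9767 genes named in that table, and the testosterone members to 4 of 488. The tables use older gene symbols, so each of the 65 and 5 regions was found through a HIST prefix, and the newer prefixes matched no region. Variant histone genes such as H2AFZ and H3F3B were therefore outside the members and are described separately as other histone genes.

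KGN is an established line of tumour origin with granulosa cell features, granulosa cells being the steroid-making cells around the oocyte. Acetylation of lysine 27 of histone H3 marks active promoters and enhancers. The study held 4 libraries of this one line, grown in the same medium: 1 immunoprecipitated (IP) and 1 input library from control cells, and 1 of each from cells given testosterone, which the labels write as 10 um, for 24 h. Regions were called by the authors from a single IP and its input in each condition. With no replicate IP, differences between control and testosterone are given as values, without a test. Read totals were not analysed here, and a difference between the lists cannot be told apart from a difference between the IP libraries. Of 9 granulosa marker genes, FOXL2 and HSD17B1 had a control promoter region, NR5A1 had regions elsewhere, and FSHR, CYP19A1, AMH, INHA, GATA4 and INHBA had none. Of 5 markers of other ovarian or blood cells, none had a promoter region, and ZP3 had 4 control regions farther away. By position, 2 of 7 granulosa markers had a control region within 1 kb of a RefSeq start (28.6%, 8.22 to 64.1). Of the other markers it was 0 of 4 (up to 49.0%), and of all protein-coding genes 46.4%. Testosterone regions were credited to none of the 14. That says little, as 0.985% of protein-coding genes had a testosterone region within 1 kb of a start.

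Most HIST genes are replication-dependent. They are transcribed mainly in S phase, when new DNA has to be packaged, and their short, intronless transcripts end in a stem-loop bound by SLBP instead of a poly(A) tail. The coactivator NPAT, which gathers with the genes in histone locus bodies, works through family-specific factors: the octamer factor POU2F1 at H2B promoters and HINFP at H4 promoters. The genes lie in a large cluster on chromosome 6 and smaller ones on chromosome 1, where many H2A and H2B genes stand head to head and share a promoter. Variant histone genes are mostly expressed through the cell cycle and usually have introns and poly(A) tails.

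The promoters of 7 genes are shown because the results below turn on them: the strongest H2A promoters, the gene where the tables overlap, an H3 gene with a region in each, the strongest H4 promoter, and a gene from each of the HIST2 and HIST3 blocks. Each line holds the RefSeq promoter window on GRCh38.p14 from 250 bases before to 50 bases after the gene start, read along the gene's own strand, 5′ to 3′. Capitals mark motifs on either strand, and a longer run in capitals is an overlap of motifs. The TATA box was searched as TATAAA and the CCAAT box by the letters of its name. The octamer was searched as ATTTGCAT. The H4 promoter element was searched by its core GGTCC.
HIST1H2AG: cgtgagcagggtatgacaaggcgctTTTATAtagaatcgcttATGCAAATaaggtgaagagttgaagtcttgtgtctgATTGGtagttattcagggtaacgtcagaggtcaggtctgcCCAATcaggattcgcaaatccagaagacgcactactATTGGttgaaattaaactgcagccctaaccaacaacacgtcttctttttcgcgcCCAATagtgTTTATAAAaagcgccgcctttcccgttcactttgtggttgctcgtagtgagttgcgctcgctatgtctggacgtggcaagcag
HIST1H2AB: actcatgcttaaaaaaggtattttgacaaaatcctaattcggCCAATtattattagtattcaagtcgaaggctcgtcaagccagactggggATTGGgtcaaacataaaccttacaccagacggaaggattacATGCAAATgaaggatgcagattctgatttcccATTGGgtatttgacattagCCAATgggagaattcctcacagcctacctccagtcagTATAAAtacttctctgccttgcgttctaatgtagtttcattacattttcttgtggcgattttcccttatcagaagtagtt
HIST1H2BL: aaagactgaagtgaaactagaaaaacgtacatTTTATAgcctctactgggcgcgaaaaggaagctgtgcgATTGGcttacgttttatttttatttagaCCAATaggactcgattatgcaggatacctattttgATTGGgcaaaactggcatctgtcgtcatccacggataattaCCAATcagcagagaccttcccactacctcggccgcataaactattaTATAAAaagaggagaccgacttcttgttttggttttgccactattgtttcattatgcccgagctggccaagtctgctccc
HIST1H3H: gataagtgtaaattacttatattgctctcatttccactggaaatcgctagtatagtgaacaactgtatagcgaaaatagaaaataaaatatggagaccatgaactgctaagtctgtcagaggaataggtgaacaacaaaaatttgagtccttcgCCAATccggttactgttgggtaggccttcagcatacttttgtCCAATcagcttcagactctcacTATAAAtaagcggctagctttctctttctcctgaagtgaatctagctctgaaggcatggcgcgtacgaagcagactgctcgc
HIST1H4K: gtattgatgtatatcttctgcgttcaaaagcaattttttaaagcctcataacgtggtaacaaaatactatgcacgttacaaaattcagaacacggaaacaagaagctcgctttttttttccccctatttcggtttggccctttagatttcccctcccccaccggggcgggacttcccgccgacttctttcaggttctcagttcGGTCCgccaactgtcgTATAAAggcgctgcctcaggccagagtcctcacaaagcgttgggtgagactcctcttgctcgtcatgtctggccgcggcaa
HIST2H2BE: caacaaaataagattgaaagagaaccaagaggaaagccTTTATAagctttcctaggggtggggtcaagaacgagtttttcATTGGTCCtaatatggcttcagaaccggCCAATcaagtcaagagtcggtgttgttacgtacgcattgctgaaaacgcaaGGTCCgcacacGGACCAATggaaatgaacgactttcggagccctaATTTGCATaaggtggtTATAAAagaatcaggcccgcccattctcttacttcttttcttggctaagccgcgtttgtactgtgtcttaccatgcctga
HIST3H2A: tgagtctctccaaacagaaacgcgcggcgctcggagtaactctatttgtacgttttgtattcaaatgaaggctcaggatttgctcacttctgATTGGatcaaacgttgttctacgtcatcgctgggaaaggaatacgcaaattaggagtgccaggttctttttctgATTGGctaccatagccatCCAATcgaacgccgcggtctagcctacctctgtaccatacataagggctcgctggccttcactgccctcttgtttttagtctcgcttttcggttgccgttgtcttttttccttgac

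Those windows lie at chr6:27132793-27133092 (HIST1H2AG, plus strand), chr6:26033569-26033868 (HIST1H2AB, minus), chr6:27807880-27808179 (HIST1H2BL, minus), chr6:27809801-27810100 (HIST1H3H, plus), chr6:27831511-27831810 (HIST1H4K, minus), chr1:149886633-149886932 (HIST2H2BE, minus) and chr1:228457824-228458123 (HIST3H2A, minus). The HIST1H2AG window holds 4 CCAAT motifs and 1 octamer, and the HIST2H2BE window holds 3 and 1. The HIST1H2BL window holds 4 CCAAT motifs and no octamer of these letters. HIST1H4K has TATAAA and GGTCC and no CCAAT. Over the 66 of 71 RefSeq histone genes with an older HIST symbol and a window, 66.7% held TATAAA, against 9.63% of 15843 protein-coding genes. CCAAT was found in 84.8% against 36.4%, the octamer in 39.4% against 1.70%, and GGTCC in 31.8% against 51.2%. The families differed in their letters. CCAAT was in every window of H1 (6), H2A (16), H2B (18) and H3 (13), and in 3 of 13 H4 windows. The octamer was in 14 of 18 H2B and 11 of 16 H2A windows, in 1 of 13 H3 windows and in none of H1 or H4. GGTCC was in 12 of 13 H4 windows, in 1 of 16 H2A and in 4 of 18 H2B windows. Histone genes credited with a control promoter region and those not credited with one held these motifs at similar shares. The split follows the authors' credits and not position. Some genes not credited, such as HIST1H2AD and HIST2H2AB, had a control region within 1 kb of their RefSeq start, and the credited HIST1H2BE had none. TATAAA was in 24 of 35 and 20 of 31, and CCAAT in 30 of 35 and 26 of 31. The octamer was in 15 of 35 and 11 of 31. These are matches of letters and say nothing of binding.

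In control cells most histone regions sat at gene starts, as did most regions in general, and their strength was near that of all regions. Of the 65 control regions, 41 (63.1%, 50.9 to 73.8) lay within 1 kb of the start of their gene in the authors' annotation, against 57.2% of all control regions. The share was 61.1% on chromosome 6, against 66.3% of all control regions there. On chromosome 1 it was 75% of 8 regions, against 55.4%. The fold enrichment deposited by the authors, the IP pileup over the local input background with 1 added to each, had a median of 5.18 over the histone regions, with a range of 3.01 to 11.3, against 4.99 over all control regions. At promoters the medians were 5.41 and 5.40. Histone regions were narrower. The median width was 357 bp against 411 bp over all regions, and 398 bp against 490 bp at promoters. A single histone region exceeded 1 kb (1.54%), against 9.48% of all control regions. Histone genes are short, with a median length of 494 bp over those with a summit near their own start.

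Promoter fold differed by family among the 36 genes with a control promoter region. Taking the highest promoter fold of each gene, the 10 H2A genes had a median of 7.64 and a range of 4.51 to 11.3, and the 5 H3 genes a median of 7.20 (4.23 to 10.4). The 11 H2B genes had a median of 5.33 (4.0 to 9.36), the 6 H4 genes 5.41 (4.59 to 6.69) and the 4 H1 genes 5.40 (3.97 to 8.02). The ranges of all 5 families overlapped. These values follow the authors' credits. Those of H2B include HIST1H2BE and HIST1H2BN, whose regions lie 11.1 kb and 1.3 kb from their RefSeq genes. Those of H2A leave out HIST2H2AB, where a region of fold 9.18 was credited to BOLA1. Over the 36 genes the median was 5.57, beside 5.86 over the 8286 genes of the table with a promoter region.

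**Figure D1:**
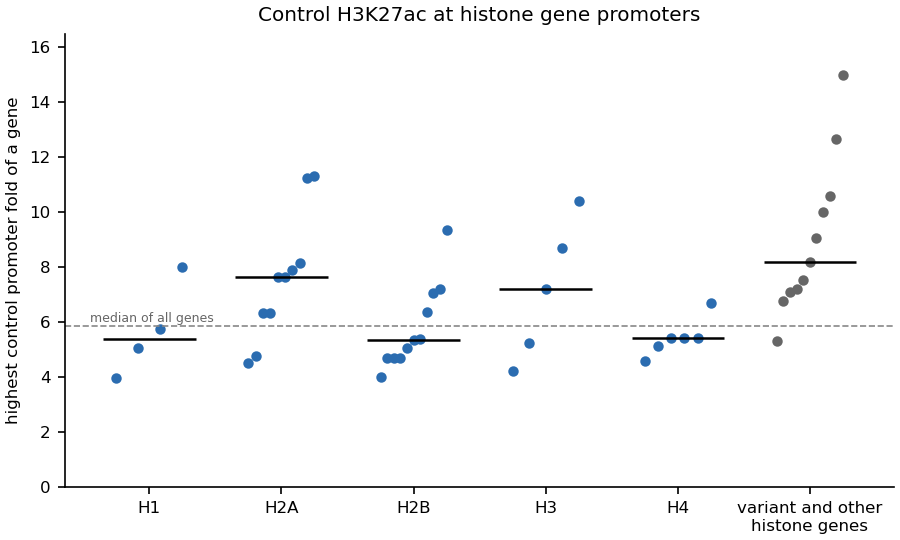
Highest control promoter fold enrichment of each gene (vertical axis, a ratio) by histone family, with the other histone genes outside the HIST clusters in grey. Each point is a gene, short bars are medians, and the dashed line is the median of 5.86 over all 8286 genes. The H2A genes reach 11.3, the H4 genes stay at or below 6.69, and H3F3B reaches 15.01.

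Starts were also counted whichever gene a region was credited to. A control region lay within 1 kb of a RefSeq start for 40 of 66 histone genes (60.6%, 48.5 to 71.5), beside 46.4% of protein-coding genes. By family it was 13 of 16 H2A genes, 12 of 18 H2B, 4 of 6 H1, 6 of 13 H4 and 5 of 13 H3. Head-to-head neighbours can share a region here, so the genes are not independent. No control region lay on or within 1 kb of 28 of the 71 genes. Among them were HIST1H2AA and HIST1H2BA, a pair known for testis expression, and HIST1H1T, the testis linker histone. HIST1H1A, HIST1H4A and HIST1H4C were also among them.

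On chromosome 6, 54 control regions credited to 32 genes ran over 1903 kb, from 25991763 to 27895146. That stretch held 75 control regions in all, 54 of them histone members, and 6 testosterone regions, 4 of them members. The members fell into 3 groups separated by gaps of 697 kb and 483 kb. The first group had 25 regions of 17 genes over 331 kb, with 18 at promoters and a median fold of 5.41. The second had 9 regions of 5 genes over 169 kb, with 5 at promoters and a median fold of 5.33. The third had 20 regions of 10 genes over 223 kb, with 10 at promoters and a median fold of 4.64. The local input background, solved from fold and pileup, had medians of 2.0, 1.85 and 3.0 in the 3 groups, and its part in the lower fold of the third was not tested. Over all 54 regions the median fold was 5.12, beside 5.11 over the 812 control regions of chromosome 6.

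**Figure D2:**
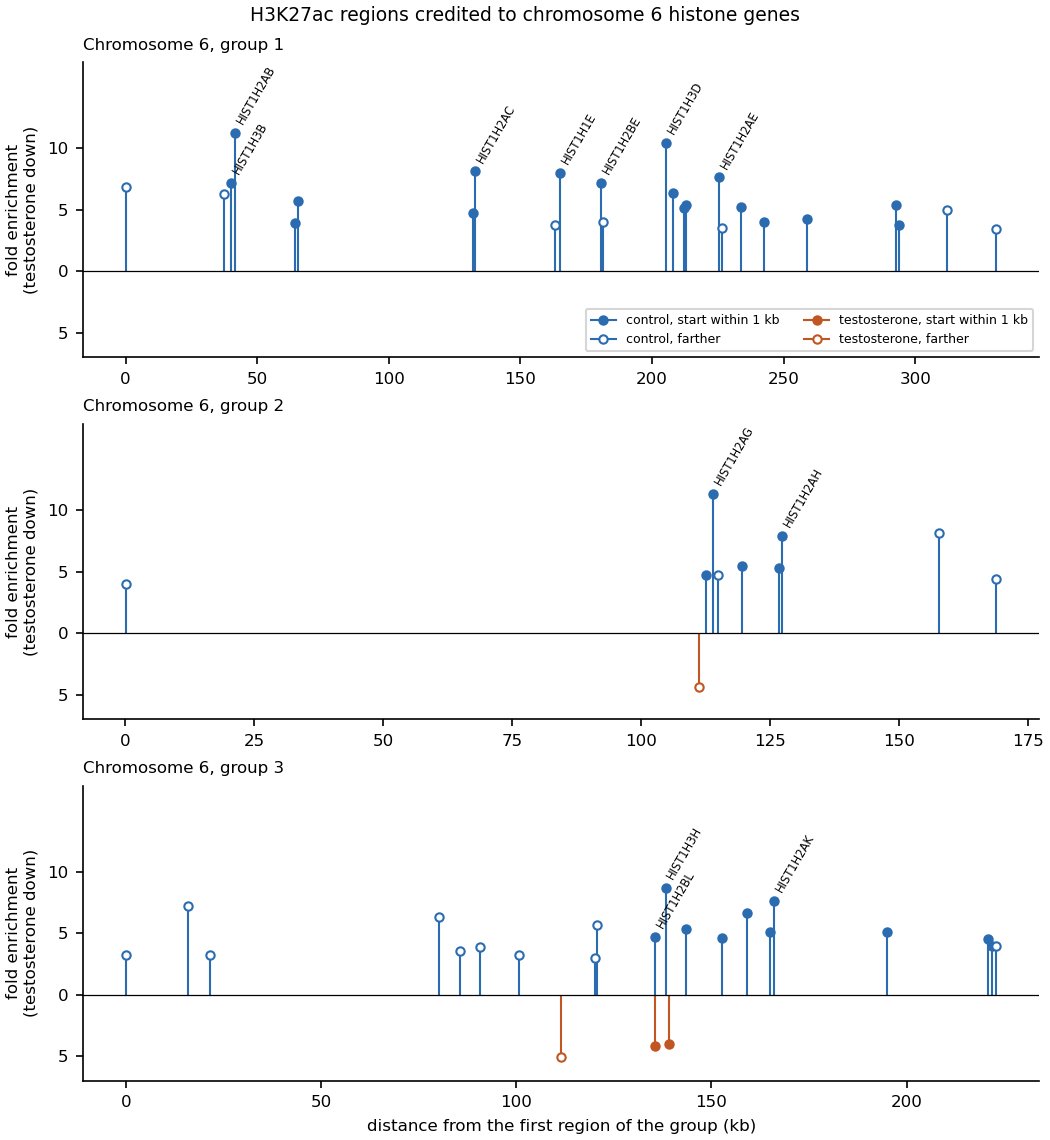
Regions credited to histone genes along the 3 chromosome 6 groups. The horizontal axis is distance in kb from the first region of the group and the vertical axis is fold enrichment (a ratio), control upward in blue and testosterone downward in orange, with filled points within 1 kb of the gene start. The first group has 25 control regions and no testosterone region, the second has 9 and 1, and the third has 20 and 3.

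The strongest chromosome 6 promoters were those of core histone genes. HIST1H2AG, an H2A gene, had a region at chr6:27133182-27134132 with a fold of 11.3 and a pileup of 23.4 over a background of 1.16. At 951 bp it was also the widest promoter region among the members. HIST1H2AB, another H2A gene, followed at chr6:26033215-26033587 with a fold of 11.2, a pileup of 22.5 and a background of 1.09. The H3 gene HIST1H3D had a fold of 10.4 at chr6:26196852-26197294. HIST1H3H, also an H3 gene, had the highest pileup of all members, 33.7 over a background of 3.0, which gave a fold of 8.68. The H2A genes HIST1H2AC, HIST1H2AH, HIST1H2AE and HIST1H2AK had promoter folds of 8.14, 7.90, 7.64 and 7.64. The linker histone gene HIST1H1E had 8.02 and the H3 gene HIST1H3B 7.20. At the other end, the linker histone gene HIST1H1D had 3.97, the H2B gene HIST1H2BO 4.0 and the H3 gene HIST1H3F 4.23. Pileups were whole multiples of 0.93659 within 0.00517, read as the value of a single fragment, so most promoters rested on few fragments. The 24 fragments that step gives at the HIST1H2AB summit have an exact Poisson 95% interval of 15.4 to 35.7, for counting error only, and the 11 at HIST1H4I an interval of 5.49 to 19.7.

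A pair of chromosome 6 credits rest on the authors' choice of transcript. The region credited to the H2B gene HIST1H2BE, with a fold of 7.20 and a width of 815 bp, lies 11.1 kb from the RefSeq gene. The region credited to HIST1H2BN lies 1.3 kb from its RefSeq gene.

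Farther from gene starts, 15 chromosome 6 regions and 1 on chromosome 1 were annotated as distal intergenic, 24.6% of the members against 16.1% of all control regions. Of these, 9 were credited to HIST1H2BL, between 14.99 and 136 kb from its start, as the nearest annotated gene. They included the widest member, of 1225 bp at chr6:27751980-27753204 (fold 6.33), and another of 940 bp at chr6:27692745-27693684 (fold 3.20). The strongest distal region, credited to HIST1H2AH at chr6:27177383-27177784, had a fold of 8.10. Transfer RNA genes cluster in the same stretch, which holds 98 of the 443 nuclear tRNA genes of the RefSeq table. Of the 16 distal members, 8 (50%, 28.0 to 72.0) lay within 1 kb of a tRNA gene, and none overlapped one. Over all distal control regions the share was 1.79%, and over the 120 distal regions of chromosome 6 that were not members it was 10% (5.81 to 16.7). No promoter member lay within 1 kb of a tRNA gene (0 of 41, up to 8.57%). The HIST1H2AH distal region lay 95 bp from TRI-AAT5-2, and a HIST1H2BL distal region with a fold of 7.19 lay 98 bp from TRI-AAT2-1, both genes for isoleucine tRNA.

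On chromosome 1, 8 control regions were credited to 6 genes, in 3 blocks more than 1 Mb apart. Their median fold was 6.32, beside 4.95 over the 2030 control regions of chromosome 1, and the 8 values ran from 3.97 to 9.36. The HIST2 block, at chr1:149850080-149887352, held 4 regions credited to histone genes. The H2B gene HIST2H2BE had a fold of 9.36 there, with a pileup of 28.1 over a background of 2.11, at chr1:149886123-149886623. Its head-to-head partner HIST2H2AC, an H2A gene, had 4.77, and the H2A gene HIST2H2AA4 had 6.31. A further region 4.43 kb from the HIST2H2BE start had 3.97. A control region at chr1:149887628-149887947, on the H2A gene HIST2H2AB, was credited by the authors to BOLA1 and so is no member. Its fold was 9.18, second in the block to HIST2H2BE, with a pileup of 33.7 over a background of 2.78. It was the only region of either table that lay on a RefSeq histone gene and was credited to a symbol outside the HIST genes. The HIST3 block, at chr1:228457399-228459697, held 3 regions within 2.30 kb. HIST3H2A had a fold of 6.34, and HIST3H2BB had 6.75 and 7.04 in its 2 regions. The last region, credited to HIST2H3PS2, had a fold of 5.33 and lay 213 kb from its start, 677 bp from a tRNA gene.

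By position, 6 of 15 chromosome 1 histone genes had a control region within 1 kb of a RefSeq start (40%, 19.8 to 64.3), and 33 of 50 on chromosome 6 (66%, 52.2 to 77.6), with overlapping intervals. On chromosome 1 the marked genes were 4 of 5 H2A and 2 of 3 H2B, with 0 of 5 H3 and 0 of 2 H4 genes. Some HIST2 genes have near-identical copies in this block, where reads are hard to place, and how the authors placed such reads is not given in the sources used here.

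**Figure D3:**
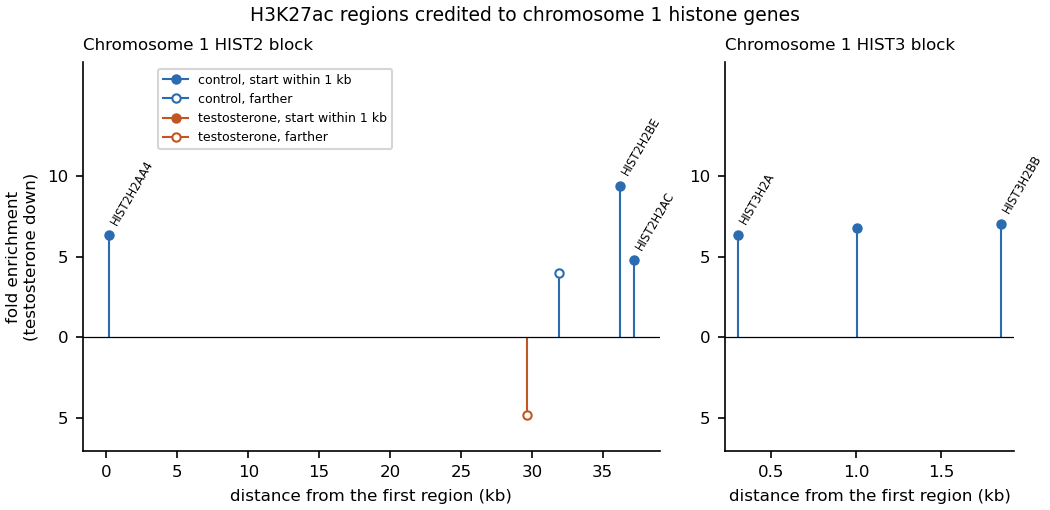
Regions credited to histone genes in the HIST2 and HIST3 blocks of chromosome 1, by distance in kb from the first region of the block (horizontal) and fold enrichment (vertical, a ratio), control upward in blue and testosterone downward in orange. HIST2H2BE is highest at 9.36, and the only testosterone region, at 4.79, lies 1.83 kb from the nearest control region.

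Chromosome 12 held the remaining 3 control members, all credited to the H4 gene HIST4H4. Their folds were 3.38 at the start, 5.12 at 0.793 kb and 4.25 at 1.54 kb from it.

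Most summits that could be placed against a gene start lay inside the gene. For 35 of the 65 control members, those nearest to the RefSeq start of their own gene, the median summit was 234 bp downstream of it, with quartiles of 173.5 and 355 bp. Of these, 32 (91.4%, 77.6 to 97.0) were downstream and 29 inside the gene. The HIST1H2AG summit lay 885 bp downstream, past its gene of 493 bp, as did those of HIST1H4J and HIST1H4K past theirs. The HIST2H2AA4 summit lay upstream of the start. HIST1H1C and HIST1H4E each had a summit upstream and another inside the gene. None of the 35 was within 50 bp of the start. For comparison, 7844 control regions had a summit within 1 kb of the nearest protein-coding start, without a match to their own gene. Their median was 124 bp downstream, 66.6% were downstream and 4.28% were within 50 bp of the start. The match leaves out members nearest another gene's start, and its part in the difference was not tested. The 29 chromosome 6 summits had a median of 234 bp and the 5 on chromosome 1 a median of 299 bp.

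**Figure D4:**
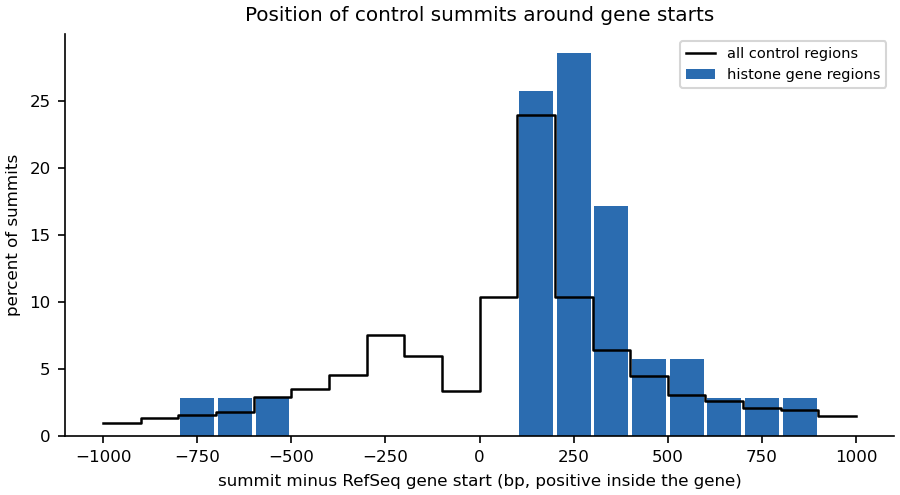
Percent of control summits in bins of distance from a RefSeq gene start (horizontal, in bp). Bars are the 35 histone regions nearest their own gene's start, and the line is 7844 control regions by the nearest protein-coding start. Positive values are downstream of the start, and 29 of the 35 histone summits were inside the gene. The line has a shoulder before the start and a peak after it, and 32 of the 35 histone summits lie after the start.

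The head-to-head H2A and H2B genes showed the layout of the mark around a shared promoter. RefSeq starts, with that of HIST1H2AH from the authors' annotation, gave 12 such pairs, with 194 to 271 bp between the starts, and 11 had a control region nearby. No region spanned the midpoint of any pair (0 of 11, up to 25.9%). In 6 pairs separate regions flanked it on both sides, and in 5 a region lay on 1 side, the H2A side in 2 and the H2B side in 3. In the flanked pairs the gap between the regions was 349 to 561 bp, and in 5 of the 6 both starts fell in that gap. The sequences of HIST1H2AG, HIST1H2BL, HIST2H2BE and HIST3H2A printed above cover the stretch between such starts. HIST1H2BJ and HIST1H2AG had 4.70 on the H2B side and 11.3 on the H2A side, and HIST2H2BE and HIST2H2AC had 9.36 and 4.77. Among 870 other protein-coding pairs with starts at most 500 bp apart, 638 had a region. There 258 (40.4%, 36.7 to 44.3) had a region across the midpoint, 121 (19.0%) had regions on both sides and 259 (40.6%) on 1 side. Histone regions were narrower than others, and the other pairs were not matched to the 194 to 271 bp between histone starts. The part of width or spacing in this layout was not tested.

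**Figure D5:**
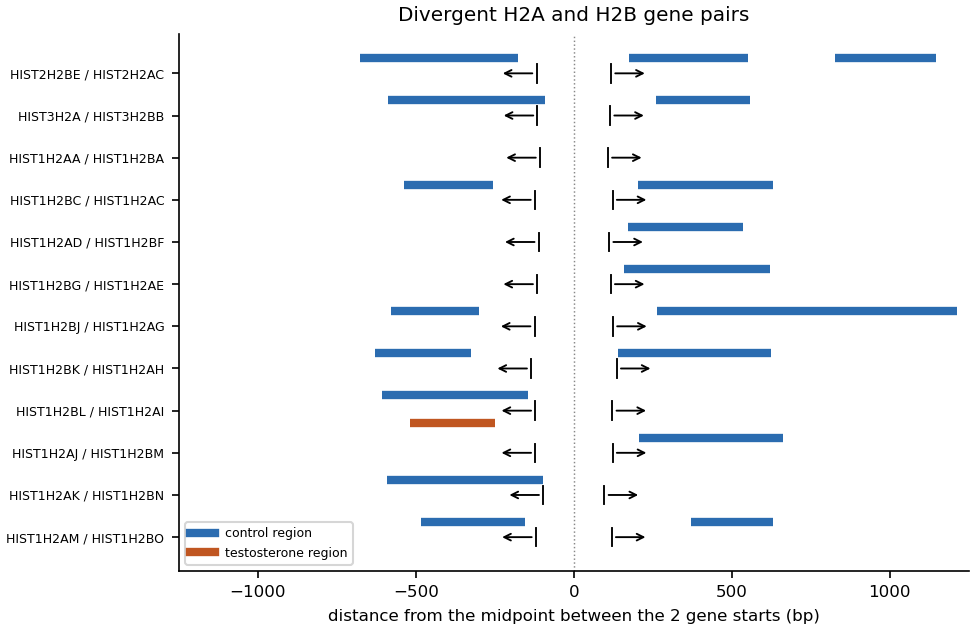
The 12 head-to-head H2A and H2B pairs, 1 per row, with gene starts as ticks, transcription as arrows and called regions as bars (control blue, testosterone orange), by distance in bp from the midpoint of the starts. The space around 0 is free of regions in all 12 rows, and the single testosterone region, at HIST1H2BL, lies on the H2B side.

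After testosterone 5 histone regions were called, of HIST1H2BL, HIST1H2BJ, HIST1H3H and HIST2H2BE. Only 1 of the 65 control regions (1.54%, 0.272 to 8.21) overlapped a testosterone region, beside 0.884% of all control regions. It was 1 of 54 on chromosome 6 and 0 of 8 on chromosome 1 (up to 32.4%). Conversely, 1 of the 5 testosterone regions (20%, 3.62 to 62.4) overlapped a control region, beside 170 of 604 (28.1%, 24.7 to 31.9) in the whole list. Of the 36 genes with a control promoter region, 2 also had a testosterone promoter region (5.56%, 1.54 to 18.1), beside 1.91% of all genes. By position, 3 of 66 histone genes had a testosterone region within 1 kb of a RefSeq start (4.55%, 1.56 to 12.5), beside 0.985% of protein-coding genes. The 3 were HIST1H2BL and its partner HIST1H2AI, which share a region, and HIST1H3H. The HIST1H3H region, counted in both shares, lay 0.976 kb from the authors' start, close to the limit of 1 kb. With counts this small, the shares of the histone genes have wide intervals.

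The overlap was at the promoter of the H2B gene HIST1H2BL. The control region, chr6:27807445-27807906, had a pileup of 31.8 over a background of 6.0 and a fold of 4.69. The testosterone region, chr6:27807534-27807803, lay wholly inside it over its 270 bp and had a pileup of 10 over a background of 1.64, a fold of 4.17. The summits were 61 bp apart. The control pileup stands for 34 fragments (exact Poisson 95% interval 23.5 to 47.5) and the testosterone pileup for 10 (4.80 to 18.4), on libraries whose totals were not analysed here. The folds were close while the pileups and backgrounds were both lower with testosterone.

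The other 4 testosterone regions overlapped no control region, and lay from 595 bp to 8.42 kb from the nearest one. The region credited to HIST1H3H, at chr6:27811040-27811289, had a fold of 4.01 and lay 504 bp past the end of the gene and 595 bp from the control region of fold 8.68. That of HIST1H2BJ, an H2B gene, at chr6:27131024-27131410, had a fold of 4.37 and lay 906 bp past the gene and 930 bp from its control region. The second region credited to HIST1H2BL, at chr6:27783162-27783485, had a fold of 5.03 and was 24.0 kb past the gene and 8.42 kb from the nearest control region. On chromosome 1 the region credited to HIST2H2BE, at chr1:149879641-149880150, had a fold of 4.79 and was 4.31 kb past the gene and 1.83 kb from a control region. Their pileups were 10, 11, 13 and 15. None of the 5 reached a -log10 q of 5, the highest being 2.96, beside a highest of 10.6 over the whole testosterone list.

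The testosterone list ran from folds of 3.01 to 7.89, and 9 of the 65 control members had a fold above that highest value, beside 10.9% of all control regions. Of the 65, 60 had a -log10 p at or above the lowest of the testosterone list, 4.92, beside 89.9% of all control regions. HIST1H2AG, HIST1H2AB, HIST1H3D and HIST2H2BE, with control folds of 9.36 to 11.3, had no testosterone region within 1 kb of their starts, and the next strongest promoter, HIST1H3H at 8.68, had one near its start that did not overlap. With 0.884% of all control regions overlapping a testosterone region, nothing particular to these genes can be read from that.

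Histone genes outside the clusters, which include the variant histone genes, had higher medians of fold and width in control cells. Of 18 such genes, 11 were credited with a control promoter region, and by position 10 of 15 had a control region within 1 kb of a RefSeq start (66.7%, 41.7 to 84.8), beside 46.4% of protein-coding genes. None had a testosterone region, and with 1.91% of all control-marked genes marked in both tables, a count of 0 among 11 says little. Their highest promoter folds had a median of 8.20 and a range of 5.31 to 15.01, beside 5.57 over the 36 cluster genes and 5.86 over all genes. The median of their widest promoter regions was 938 bp, beside 424.5 bp over the cluster genes and 551 bp over all genes. H3F3B, which codes for the replacement histone H3.3, had 15.01, H2AFZ, which codes for H2A.Z, had 12.7, and H1F0, a linker histone of non-dividing cells, had 10.6.

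Of 29 genes for transcription and 3′ end processing of histone mRNA, 21 were credited with a control promoter region, with a median fold of 6.97 beside 5.86 over all genes. None was credited with a testosterone promoter region, where 1.91% of all control-marked genes were. By position, 21 of 24 had a control region within 1 kb of a RefSeq start (87.5%, 69.0 to 95.7), beside 46.4% of protein-coding genes. A testosterone region lay that near for 1 of the 24, FIP1L1 (4.17%, 0.739 to 20.2), beside 0.985%, and it was credited to another gene. LSM10, a protein of the U7 snRNP that cuts histone transcripts, had 12.1, the zinc finger factor YY1 had 11.6 and the exonuclease ERI1 had 9.31. COIL, which codes for coilin of Cajal bodies, had a testosterone region away from its promoter, with a fold of 4.16, 1602 bp from a control region. SLBP had 4.32 and HINFP 7.20 in control cells, POU2F1 had 7.91, and no region was credited to NPAT. Among 30 genes for histone chaperones and deposition, 23 were credited with a control promoter region, with a median fold of 5.85, close to the 5.86 over all genes. By position, 20 of 25 had a control region within 1 kb of a RefSeq start (80%, 60.9 to 91.1), beside 46.4% of protein-coding genes, and 0 of 25 a testosterone region (up to 13.3%), beside 0.985%. By the authors' starts, 2 of the 23 with a control promoter region also had a testosterone promoter region, beside 1.91% of all control-marked genes. A count of 2 is small. RBBP4, a histone-binding subunit of several chromatin complexes, had 10.4, SSRP1, a subunit of the chaperone FACT, had 9.24, and UBN1, a subunit of the HIRA complex, had 9.12. ANP32E, a chaperone that removes H2A.Z, had a testosterone fold of 3.91, with the region 66 bp from a control region. NAP1L1, a chaperone of H2A and H2B, had 4.22, with the region 938 bp from one. Neither overlapped a control region.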

How the data were processed

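H3K27ac regions were read from 2 deposited tables, 1 per condition, for which the authors compared 1 IP with its input. Tools named in the submitters' processing notes are bedtools, ChIPseeker, MACS2 and Bowtie2 2.0, with builds mm10 and hg38. Caller settings were not given in the sources used here. The deposited pileup is a signal, read as fragments at the summit, and the deposited fold enrichment is a ratio. The authors' significance values, -log10 p and -log10 q, stand in 2 columns whose headers were lost in the testosterone list, where order and values identified them. Positions were read as GRCh38.

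Members were found by symbol, and all 39 symbols matched RefSeq. Promoter regions lay within 1 kb of the authors' gene start, blocks were runs of regions less than 1 Mb apart, and the chromosome 6 groups were split at gaps over 300 kb. Regions overlapped when they shared at least 1 bp. Genes were named by rule: those with a testosterone region, on each of chromosomes 6 and 1 the 10 of largest and 3 of smallest fold, all on other chromosomes, the 3 widest regions, and from each list those with a testosterone region and the 3 of largest promoter fold. NPAT, SLBP, HINFP, POU2F1, FIP1L1, HIST2H2AB, genes named for their summits and unmarked genes were named after their values were seen. Members, lists and groups were chosen with earlier results of these data known. The comparisons with tRNA genes and head-to-head pairs were chosen after seeing the regions. With 1 IP library per condition no test was made, and Wilson and Poisson 95% intervals cover counting error only. The alternatives were stricter -log10 q (5 and 10) and fold (4), promoter distances of 500 bp and 3 kb, other overlap rules, members by position, and 1 region per gene. The overlap code was tested on simulated data. Promoter sequences are from RefSeq on GRCh38.p14, and 66 of 71 histone genes had one. Python 3.11.15, pandas 2.3.3 and scipy 1.17.1 were used.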

Additional observations from a re-analysis of the deposited data

How the results depend on the processing

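Of 46 values under other settings, 30 were counted as near those reported and 16 as moved. The values are counts, medians and percentiles, which have no direction to reverse. Those counted as near include falls of some size. Control histone regions went from 65 to 47 at a fold of at least 4. Promoter-marked genes on chromosome 6 went from 30 to 22 at a -log10 q of at least 5. With -log10 q held to 5 or more, 35 of the 65 control histone regions were left, beside 54.2% of all control regions. Testosterone histone regions then numbered 0, none overlapped (0), and the chromosome 6 median fold was 6.69. At 10, there were 14 control and 0 testosterone regions, the overlap was 0, promoter-marked genes numbered 9 on chromosome 6 and 3 on chromosome 1, and the chromosome 6 median was 8.10. A fold of at least 4 raised that median to 5.69, and 1 region per gene to 6.02. These 4 settings keep stronger regions by construction. Counting regions on or within 1 kb of a RefSeq histone gene left 43 control and 3 testosterone regions. Sharing within 1 kb raised the shared control regions from 1 to 3. Shares over the whole lists are not given for that rule, the fold limit, a -log10 q of 10 or the testosterone regions. Those counts therefore show nothing particular to histone genes. Keeping members within 3 kb of the start, chosen after seeing the data, left 3 testosterone regions. No paired analysis was possible because each condition had 1 IP library. Counts of 9 to 36 fragments per summit limit the precision of every single fold, and with 5 testosterone regions shares of the testosterone members have wide intervals.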
